A study of Mus musculus with 10 samples.

Results

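The genes described here are 8 genes of sterol synthesis and transport, namely Stard4, Hsd17b7, Mvd, Hmgcs1, Sqle, Insig1, Idi1 and Cyp51. All probe sets whose single platform gene symbol was one of these names were taken, which gave 21 probe sets of the 45037 on the array other than controls. Of the genes, these are 8 of 18193 with a probe set of their own. Murine Mll-AF9 leukaemia cells of line 4166 carried either an empty lentiviral vector (control, n = 5) or a lentivirus with an shRNA against Meis1 (n = 5). Both groups were under puromycin selection and were compared 48 h after transduction, grown with 2 ng/ml of interleukin 3 in IMDM that held 15% serum. The cells are 1 line transformed by Mll-AF9, the labels name 1 Meis1 shRNA, and the only control is an empty vector without a hairpin. The labels pair the samples by number. They do not say whether the pairs were separate cultures, so the p-values cover just the spread among these samples, possibly a technical one, and 5 arrays a group limit the precision. The comparison asked how expression differed when Meis1, a homeodomain factor active in leukaemias with Mll fusions, was knocked down.

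Cells make cholesterol from acetyl-CoA through mevalonate, isoprenoid pyrophosphates, squalene and lanosterol. When membrane sterol is low, the escort protein Scap carries the transcription factor SREBP from the endoplasmic reticulum to the Golgi, where proteases release its active part, and SREBP then drives most genes of the pathway. Insig proteins hold Scap back when sterol is plentiful. In myeloid leukaemia cells the pathway is known for supplying membrane to dividing cells and isoprenoid groups to small GTPases. Hmgcs1 makes HMG-CoA, Mvd decarboxylates mevalonate pyrophosphate to isopentenyl pyrophosphate and Idi1 isomerises that product. Sqle epoxidises squalene, Cyp51 demethylates lanosterol and Hsd17b7 reduces a later sterol ketone. Stard4 carries cholesterol through the cytosol between membranes.

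SREBP acts on promoters beside the factors NF-Y, which binds CCAAT, and Sp1, which binds GGGCGG. RefSeq promoters on build GRCm38.p6, from 250 bases before to 50 after the annotated start, were given for 6 of the 8 genes: Hsd17b7, Mvd, Hmgcs1, Insig1, Idi1 and Cyp51. Motifs were searched on both strands, each without regard to the others. The sterol response element TCACNCCAC was found in 408 of 32851 promoters (1.24%), the E-box CACGTG in 7.15%, CCAAT in 37.4% and GGGCGG in 35.7%. All 6 promoters held CCAAT and GGGCGG, as did 10 and 9 of 10 other cholesterol synthesis genes with a promoter. Hmgcs1 alone of the 6 held the sterol response element, as TCACCCCAC 137 bases before the start. The E-box stood 143 bases before the start of Hsd17b7 and 101 before that of Insig1. No match says only that these letters are not in the window.

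The promoters of Hmgcs1, Hsd17b7 and Insig1 are shown because they hold the sterol response element or the E-box, and that of Mvd because it belongs to the only gene of the 8 that rose. Capitals mark the sterol response element, the E-box and CCAAT, or ATTGG where CCAAT lies on the other strand. The windows are chr13:119690101-119690400 (plus strand) for Hmgcs1, chr8:122443373-122443672 (minus strand) for Mvd, chr1:169969156-169969455 (minus strand) for Hsd17b7 and chr5:28071162-28071461 (plus strand) for Insig1.
Hmgcs1: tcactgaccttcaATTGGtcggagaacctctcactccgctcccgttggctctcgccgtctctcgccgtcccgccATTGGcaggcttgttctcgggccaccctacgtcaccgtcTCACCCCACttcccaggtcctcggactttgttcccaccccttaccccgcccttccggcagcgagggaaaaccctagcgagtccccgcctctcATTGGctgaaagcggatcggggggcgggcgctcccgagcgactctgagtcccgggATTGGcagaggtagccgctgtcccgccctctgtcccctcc
Mvd: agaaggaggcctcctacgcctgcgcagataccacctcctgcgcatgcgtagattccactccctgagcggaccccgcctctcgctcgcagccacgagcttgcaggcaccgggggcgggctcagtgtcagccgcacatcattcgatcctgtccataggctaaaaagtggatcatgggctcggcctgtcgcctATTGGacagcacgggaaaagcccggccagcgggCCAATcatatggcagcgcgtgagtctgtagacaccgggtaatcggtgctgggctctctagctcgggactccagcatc
Hsd17b7: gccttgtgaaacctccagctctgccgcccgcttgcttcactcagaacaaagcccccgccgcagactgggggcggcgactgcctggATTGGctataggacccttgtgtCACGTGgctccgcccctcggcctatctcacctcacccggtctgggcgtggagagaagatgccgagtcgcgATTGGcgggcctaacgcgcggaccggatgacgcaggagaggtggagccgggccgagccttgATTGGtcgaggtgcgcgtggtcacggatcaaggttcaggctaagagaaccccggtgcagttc
Insig1: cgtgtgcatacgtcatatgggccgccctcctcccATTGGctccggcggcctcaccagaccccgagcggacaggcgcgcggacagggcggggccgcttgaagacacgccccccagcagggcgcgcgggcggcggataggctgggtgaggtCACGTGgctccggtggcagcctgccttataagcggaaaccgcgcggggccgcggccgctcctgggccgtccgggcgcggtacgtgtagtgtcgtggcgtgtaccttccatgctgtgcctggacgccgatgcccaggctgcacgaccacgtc
CCAAT occurred 4 times in Hmgcs1, 3 times in Hsd17b7, 2 times in Mvd and 1 time in Insig1. These matches are a description of the letters and no measure of binding.

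The targeted transcript was lower in the samples labelled shRNA at its bright probe set only. Meis1 read 346 ± 56.3 with the vector and 165 ± 40.2 with the shRNA at its bright probe set (SD, n = 5, intensity), a log2 change of -1.09 (SE 0.09, limma adjusted p = 0.000767). Its dim probe sets 1443260_at and 1459423_at, at mean log2 levels of 2.91 and 2.47, changed by 0.09 and 0.11 (limma adjusted p = 0.694 and 0.664). Of 12 markers of myeloid progenitors, 11 had a mean log2 level above 5, led by Mpo at 13.33, and Kit was the only one called (-0.78, adjusted p = 0.00237). The mean log2 level of 6 erythroid markers lay between 2.29 and 2.59 in both groups, and that of 6 lymphoid markers between 2.27 and 2.59. None of those 12 genes was above 3.04, against 1.90 to 1.98 for the unspiked Trpn controls, which mark background. Among 8 stromal markers only Thy1, which lymphoid and stem cells also carry, was above 5, and it changed by -0.31 (adjusted p = 0.179), lower in 5 of 5 pairs. The stromal mean was 3.11 to 3.39 with the vector and 3.12 to 3.54 with the shRNA, higher in 5 of 5 pairs by 0.07 on average. Of 10 macrophage markers, 2 had a mean log2 level above 5. These were Adgre1, the only one called (0.65, adjusted p = 0.0275), and the brighter Cd68 (-0.04, adjusted p = 0.94). The mean of the 10, most of them dim, was 3.64 to 4.43 with the vector and 4.02 to 4.45 with the shRNA, higher in 5 of 5 pairs by 0.20 on average. The part of these markers in the results was not tested. RNA integrity was read from the Gapdh and actin control probe sets, whose log2 signal near the 3 prime end minus that near the 5 prime end was 0.28 ± 0.06 with the vector and 0.37 ± 0.02 with the shRNA (SD over n = 5 arrays). It was higher in 5 of 5 pairs (exact two-sided sign-flip permutation p = 0.0625, the smallest that 5 pairs allow). In bulk RNA, fewer cells of a type and less RNA per cell cannot be told apart.

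Of the 8 genes, Stard4 and Hsd17b7 fell, Mvd rose and the other 5 did not pass. A gene is represented by whichever of its probe sets was brightest on average, and a change is the log2 level with the shRNA minus that with the vector. Passing means an adjusted p under 0.05 in a paired limma fit over all 45037 probe sets. By that rule 2 of the 8 were lower and 1 was higher, where 3.16% of all 18193 genes were called, 2.34% lower and 0.813% higher. Over probe sets, 4 of the 21 were lower and 1 higher, against 2.48% of all probe sets called, 1.96% lower and 0.522% higher. The genes were picked with earlier results of these data known, and 3 of the 5 called probe sets belong to Stard4, so these counts do not show that the pathway as a whole responded. The median change was -0.12 over the 8 genes and 0.00 over all genes.

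**Figure D1:**
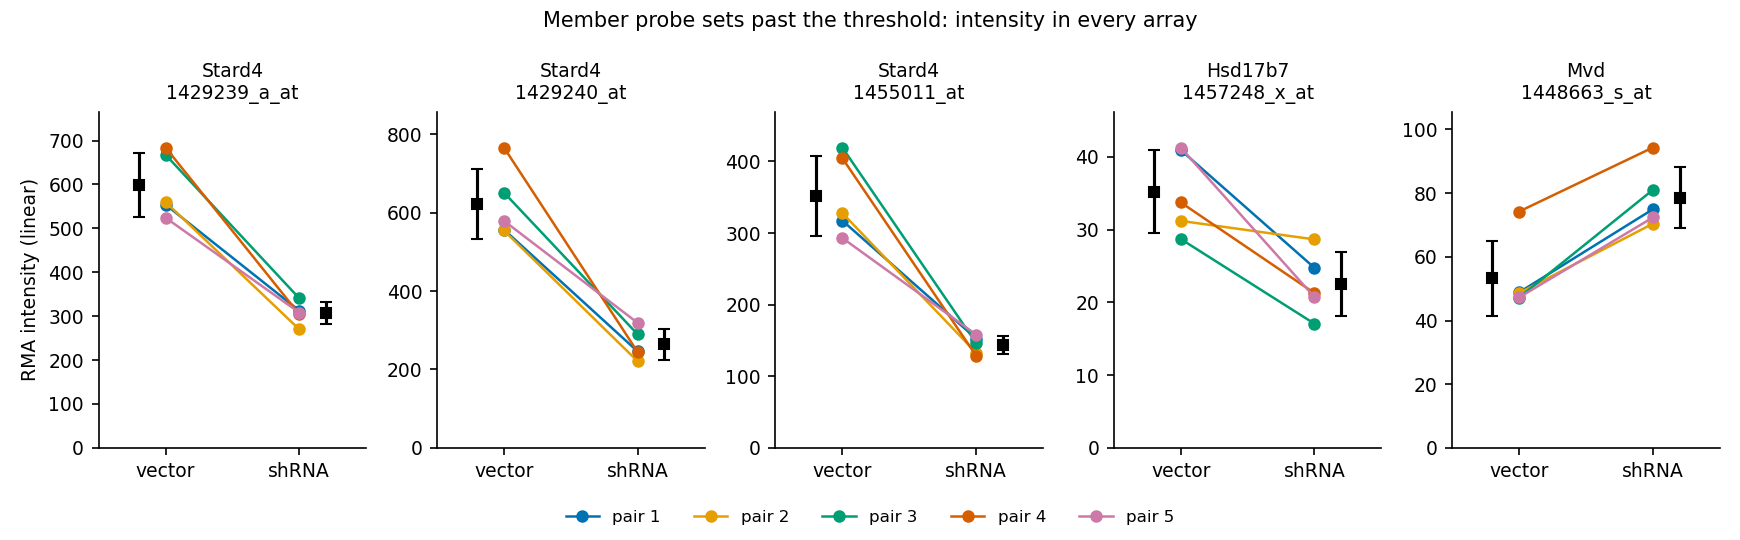
Intensity on a linear scale (vertical axis, from 0) of the 5 called probe sets in every array, with a line from each vector sample to its shRNA partner and black squares for the mean ± SD of 5 arrays. The 3 Stard4 probe sets and that of Hsd17b7 fall in all 5 pairs, and that of Mvd rises in all 5, with vector sample 4 at 74.23 above the other vector samples.

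Stard4, the sterol carrier, had the largest change among the 8 genes. All probe sets of Insig2, a gene outside the 8, passed, but among the 8 this held for Stard4 alone. At probe set 1429239_a_at (Entrez gene 170459) vector samples 1 to 5 read 554.0, 560.0, 667.6, 684.0 and 524.2, and their shRNA partners read 312.4, 269.8, 340.4, 304.1 and 308.1. The lowest vector sample was thus above the highest shRNA sample. The level went from 598 ± 72.6 to 307 ± 25.2 (SD, n = 5), 1.94-fold lower, a log2 change of -0.96 (SE 0.09, adjusted p = 0.00170). At 1429240_at the vector samples read 556.8, 554.5, 651.3, 766.0 and 579.1 and the shRNA samples 245.8, 220.6, 289.3, 244.2 and 318.7. These groups did not overlap either, and the change was -1.24 (SE 0.12, adjusted p = 0.00140), 2.36-fold lower. At 1455011_at they read 317.4, 327.9, 419.4, 404.6 and 293.1 against 152.7, 132.9, 146.5, 128.8 and 158.2, again without overlap, a change of -1.28 (SE 0.12, adjusted p = 0.00156).

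Vector samples 3 and 4 had the highest Stard4 levels at all 3 probe sets. Pair 4 fell most at each probe set, with log2 differences of -1.17, -1.65 and -1.65, and pair 5 least, with -0.77, -0.86 and -0.89. The call held at all 3 probe sets with any 1 pair left out, with changes of -0.90 to -1.38, and in an unpaired fit. It did not hold without variance moderation (adjusted p = 0.0782, 0.0990 and 0.108) or when the 3 prime to 5 prime ratio entered as covariate. With the covariate the changes were -0.80, -0.89 and -0.96 (adjusted p = 0.416, 0.362 and 0.399). There limma called 0 of all probe sets, with 2504 at an unadjusted p under 0.05. The bright Meis1 probe set also lost its call without variance moderation (adjusted p = 0.0542) and with the covariate (-0.98, adjusted p = 0.246). The ratio was higher with the shRNA in 5 of 5 pairs, so this covariate is largely confounded with the shRNA. A call lost in that fit therefore says little about a single gene.

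Mvd, the decarboxylase of the mevalonate branch, moved the other way at the brighter of its probe sets. At 1448663_s_at (Entrez gene 192156) vector samples 1 to 5 read 48.84, 48.63, 47.20, 74.23 and 47.24 and the shRNA samples 74.94, 70.41, 81.03, 94.33 and 72.36. The other 4 vector samples lay within 47.20 to 48.84, so that vector sample 4 alone made the groups overlap. The level was 53.2 ± 11.8 with the vector and 78.6 ± 9.65 with the shRNA, 1.49-fold higher, a log2 change of 0.58 (SE 0.09, adjusted p = 0.0153), with pair differences of 0.62, 0.53, 0.78, 0.35 and 0.62. The suffix of this probe set marks probes shared by several transcripts. The dimmer 1417303_at read 29.2 ± 11.4 and 30.4 ± 8.56, a change of 0.08 (95% interval -0.28 to 0.44), with pair differences from -0.38 to 0.75. The Mvd call was lost without pair 1, 2 or 3 (adjusted p = 0.0702, 0.0591 and 0.0658), in an unpaired fit (0.0532) and when its probe sets were averaged (0.33, adjusted p = 0.105).

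Hsd17b7, the late sterol ketoreductase, fell at 1 of its 4 probe sets, all of which were dim. At 1457248_x_at (Entrez gene 15490) vector samples 1 to 5 read 40.95, 31.20, 28.71, 33.74 and 41.28, and the shRNA samples 24.74, 28.65, 17.06, 21.27 and 20.72. The groups were separated by the narrow step from 28.71 to 28.65, and pair 2 changed by only -0.12. The change was -0.65 (SE 0.12, adjusted p = 0.0326), 1.57-fold lower. An x suffix marks probes that can match unrelated transcripts. The other probe sets, at mean intensities of 3.7 to 9.47 with the vector, changed by -0.33 (1448865_at, adjusted p = 0.193), -0.23 (1417871_at) and 0.08 (1440057_at), and the last of them was at a log2 level of 1.92, that of background. The call was lost without pair 1, 3, 4 or 5 (adjusted p = 0.12, 0.113, 0.133 and 0.0506), after quantile normalization (-0.53, adjusted p = 0.108), on the scale log2(value + 16) (-0.41, adjusted p = 0.0537) and as the mean of the probe sets (-0.28, adjusted p = 0.0567). Like Stard4, neither Mvd nor Hsd17b7 passed without variance moderation (adjusted p = 0.119 and 0.229) or with the ratio covariate (adjusted p = 0.558 and 0.829), where their changes were 0.71 and -0.69.

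**Figure D2:**
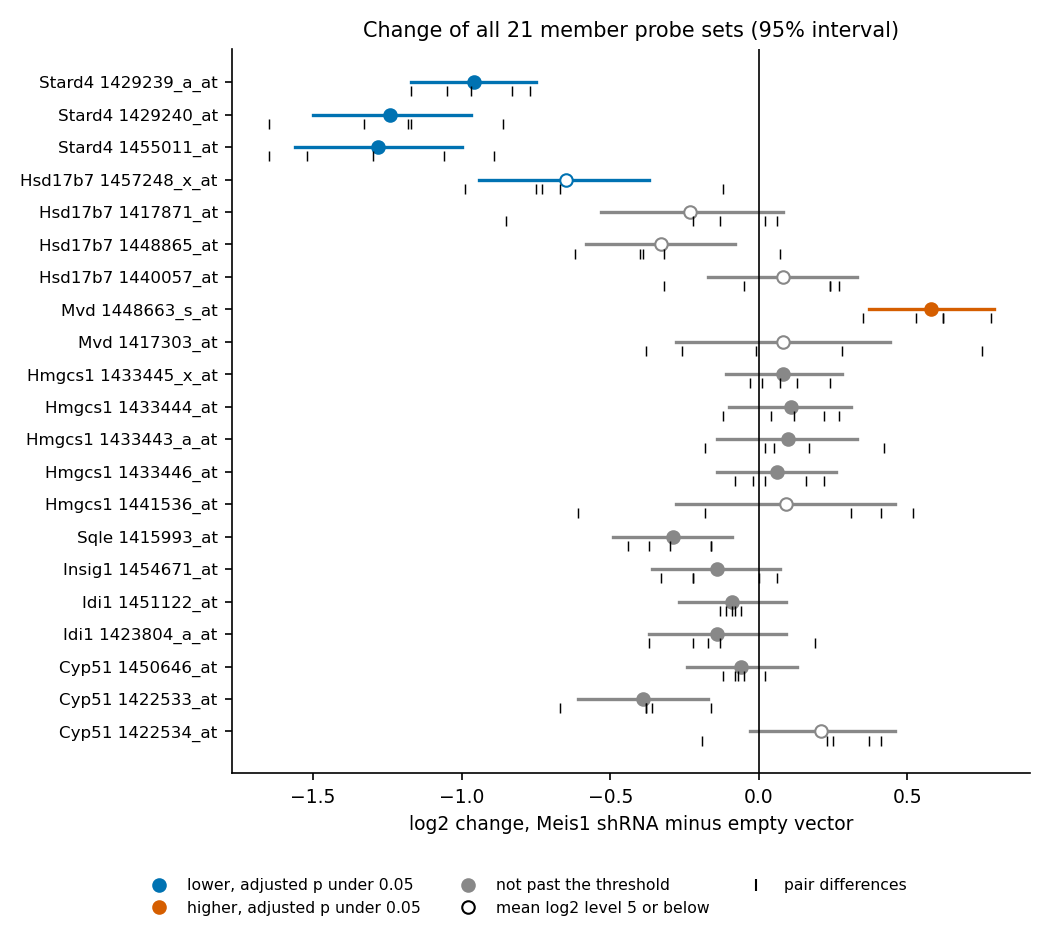
Log2 change, Meis1 shRNA minus empty vector (horizontal axis), of all 21 probe sets, with the 95% interval of the paired limma fit as a line and the 5 pair differences as ticks below it; open circles mark a mean log2 level of 5 or below. Stard4 stands at -0.96 to -1.28 at its 3 probe sets, whereas the 4 bright Hmgcs1 probe sets lie between 0.06 and 0.11.

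Hmgcs1, Idi1, Sqle, Cyp51 and Insig1 did not pass at any probe set. Hmgcs1, the HMG-CoA synthase (Entrez gene 208715), read 2029, 1851, 2407, 2379 and 2338 in vector samples 1 to 5 at 1433445_x_at and 1990, 1864, 2833, 2606 and 2455 in the shRNA samples. Samples 1 and 2 were the lowest of both groups, and the groups overlapped. Its change was 0.08 (95% interval -0.11 to 0.28, adjusted p = 0.732). The bright probe sets 1433444_at, 1433443_a_at and 1433446_at changed by 0.11, 0.10 and 0.06, with intervals that together ran from -0.14 to 0.33. Such intervals do not show that Hmgcs1 was the same in both groups. The dim 1441536_at changed by 0.09 (-0.28 to 0.46).

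Idi1, the isomerase (Entrez gene 319554), was steady within pairs. At 1451122_at the vector samples read 1395, 1301, 1531, 1620 and 1468 and the shRNA samples 1313, 1191, 1445, 1496 and 1413. Each shRNA sample was below its partner, by 0.06 to 0.13 on the log2 scale, while the groups overlapped. The change of -0.09 (SE 0.08, 95% interval -0.27 to 0.09, adjusted p = 0.672) did not pass. The pair differences had an SD of 0.03, and the SE is larger because limma draws it towards the spread of all probe sets. The other probe set, 1423804_a_at, changed by -0.14 (adjusted p = 0.607), with pair 3 at 0.19 and the other pairs below 0.

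Sqle, the squalene epoxidase (Entrez gene 20775), has a single probe set, 1415993_at. Vector samples 1 to 5 read 443.1, 451.6, 508.6, 519.5 and 388.7 and the shRNA samples 395.4, 402.8, 394.4, 383.9 and 315.1. All 5 shRNA samples were below their partners, and vector sample 5 lay below shRNA samples 1, 2 and 3. The change was -0.29 (SE 0.09, 95% interval -0.49 to -0.09), with an adjusted p of 0.153. It passed among bright probe sets, those of mean log2 level above 5 (adjusted p = 0.0299), with trend and robust eBayes (0.0353) and on the scale log2(value + 16) (0.0400). These settings called more probe sets in general, at 2040 of 11215, 2309 of 45037 and 1453 of 45037, against 1116 of 45037 in the main fit.

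The probe sets of Cyp51, the lanosterol demethylase (Entrez gene 13121), disagreed. At the brightest, 1450646_at, vector samples read 481.9, 458.6, 486.2, 549.7 and 396.2 and shRNA samples 464.4, 437.5, 493.5, 507.5 and 375.5. Each sample was close to its partner, and the change was -0.06 (95% interval -0.24 to 0.13, adjusted p = 0.816). At 1422533_at the vector samples read 174.6, 185.1, 203.5, 222.0 and 170.0 and the shRNA samples 134.0, 116.1, 181.9, 171.0 and 132.9. Here every shRNA sample was below its partner, by 0.16 to 0.67, and the change was -0.39 (SE 0.10, adjusted p = 0.0817). It passed under the same 3 alternatives as Sqle, which called more probe sets in general (adjusted p = 0.0217, 0.0306 and 0.0453). The third, 1422534_at, was near background at a mean log2 level of 2.08 and changed by 0.21 (adjusted p = 0.412).

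Insig1, which retains Scap in the endoplasmic reticulum (Entrez gene 231070), had 1 probe set, 1454671_at. Vector samples read 278.3, 277.7, 285.7, 284.5 and 343.4 and shRNA samples 290.4, 238.3, 244.7, 225.8 and 343.4. Sample 5 was the highest in both groups and equal in both, and pairs 2, 3 and 4 were lower with the shRNA. The change was -0.14 (SE 0.09, 95% interval -0.36 to 0.07, adjusted p = 0.558).

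**Figure D3:**
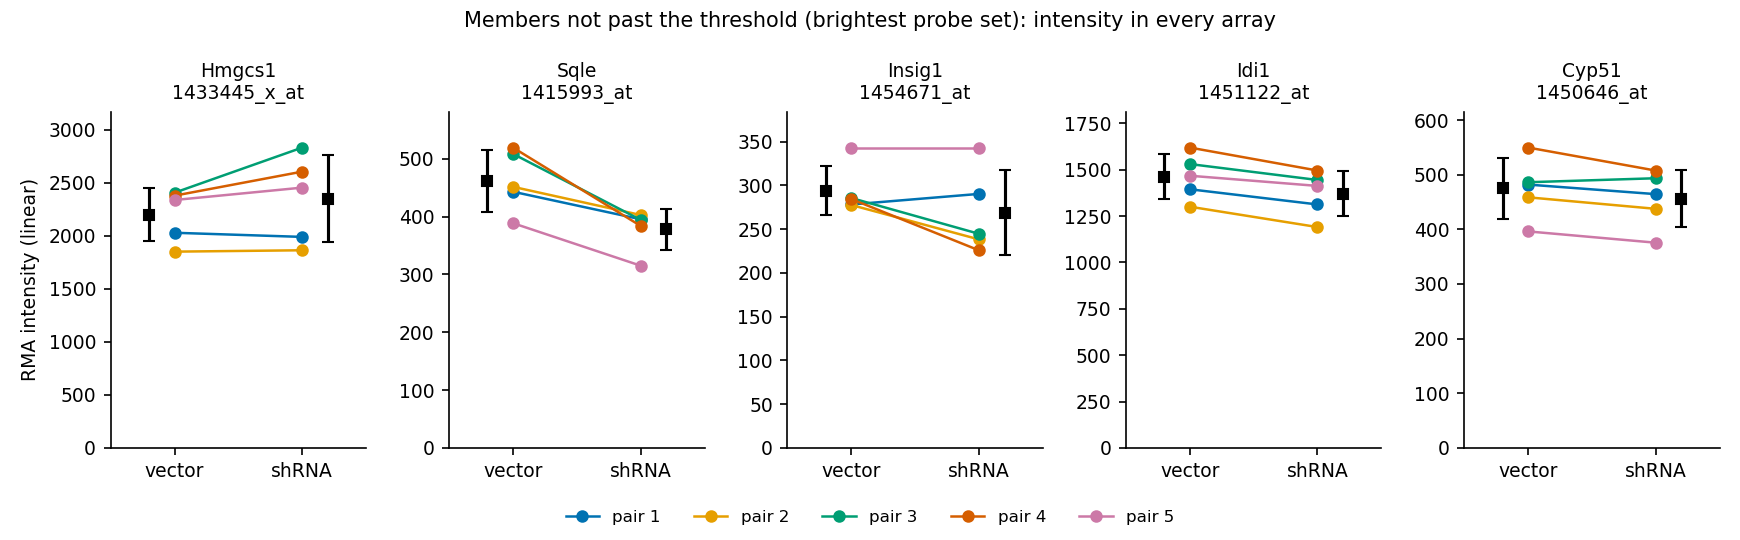
Intensity on a linear scale (vertical axis, from 0) of the brightest probe set of the 5 genes that did not pass, in every array, with a line from each vector sample to its shRNA partner and black squares for the mean ± SD of 5 arrays. The pairs lie farther apart than their ends for Idi1 and Cyp51, and Sqle falls in all 5 pairs.

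For these 5 genes the range of the pair means was larger than the change between the groups. The mean level of a pair ranged over 0.49 for Hmgcs1, 0.36 for Sqle, 0.44 for Insig1, 0.32 for Idi1 and 0.45 for Cyp51 on the log2 scale at the brightest probe sets. For Stard4 that range was 0.29, below its change of 0.96 in size. Over the 21 probe sets the range of pair means exceeded the size of the change in 16, none of which was called, and was below it in the 5 called ones. A range over 5 pairs and a mean change are unlike measures. The paired fit takes out the pair means, so this split is no support for the calls. The highest pair was not the same throughout, being pair 3 for Hmgcs1, Sqle and Stard4, pair 4 for Idi1 and Cyp51 and pair 5 for Insig1. The ranges of the groups did not overlap at 4 of the 21 probe sets (3 of Stard4 and 1 of Hsd17b7), against 3.95% of all probe sets.

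The other enzymes of cholesterol synthesis did not pass, which at 3.16% of all genes called is near the background for so short a list. Of 12 measured genes from mevalonate kinase to the last reductases, 0 rose and 0 fell by limma's adjusted p (0 at an unadjusted p under 0.05), and their changes lay between -0.26 (Tm7sf2) and 0.06 (Msmo1), with a median of -0.07. Fdft1, which makes squalene, read 351 ± 50 and 337 ± 44.5 at its brightest probe set (SD, n = 5), a change of -0.06 (95% interval -0.24 to 0.13, adjusted p = 0.826). Neighbours of Mvd in the pathway were at 0.05 (Mvk), -0.02 (Pmvk) and -0.12 (Fdps, adjusted p = 0.646).

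Among 12 genes that sense sterol or control SREBP, Insig2 fell, none rose and 11 did not pass, with a list median of -0.10. With 3.16% of all genes called, a count of 1 in 12 says little about the list. Another gene of the list was called higher among bright probe sets and on the scale log2(value + 16), and under quantile normalization the single call was a higher one and not Insig2. Insig2, the paralogue of Insig1, read 58.63, 50.35, 58.77, 73.29 and 46.08 in vector samples 1 to 5 at 1417981_at and 31.61, 25.89, 40.81, 44.51 and 41.29 in their partners. The lowest vector sample was above the highest shRNA sample, with the smallest step in pair 5. The change was -0.65 (SE 0.13, adjusted p = 0.0329), and the dimmer 1417980_a_at and 1417982_at also passed, at -0.86 and -0.62 (adjusted p = 0.0372 and 0.0220). Each of these passed in 6 of 14 alternatives only. Both calls were lost in an unpaired fit (adjusted p = 0.153 and 0.121), with a random block (0.110 and 0.0833) and on the scale log2(value + 16) (-0.49 and -0.27, adjusted p = 0.1 and 0.0513), and with the ratio covariate the changes were -0.28 and -0.53. At 1417981_at the call was lost without pair 1, 2, 3 or 4 (adjusted p up to 0.143), in an unpaired fit (0.0715), after quantile normalization (0.0615), without variance moderation (0.231) and with the ratio covariate (-0.45, adjusted p = 0.950). The difference between the Insig1 and Insig2 changes was not tested.

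The SREBP genes themselves did not pass. Srebf1, whose product favours fatty acid genes, changed by -0.37 (SE 0.12, adjusted p = 0.177), lower in 4 of 5 pairs. Srebf2, whose product favours sterol genes, changed by -0.26 (SE 0.12, adjusted p = 0.370) and -0.19 (adjusted p = 0.440) at its probe sets. Scap changed by 0.16 (SE 0.09, adjusted p = 0.471).

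In the list of sterol uptake, transport, efflux and storage, 2 of 18 genes fell, none rose and 16 did not pass, where 2.34% of all genes were called lower, and the median was 0.00. Stard7 carries phosphatidylcholine to mitochondria and shares the START fold with Stard4. It read 1005, 1046, 896.6, 1004 and 860.5 in the vector samples at 1449628_s_at and 450.6, 368.1, 433.5, 350.2 and 478.6 in the shRNA samples, with no overlap, a change of -1.22 (SE 0.12, adjusted p = 0.00170). As for Mvd, the s suffix of this probe set marks probes shared by several transcripts. The second Stard7 probe set, at a mean log2 level of 2.17, was near background and changed by 0.05 (adjusted p = 0.919). Nceh1, which hydrolyses cholesteryl ester, read 41.42, 43.53, 37.27, 47.79 and 36.11 at 1455227_at against 15.50, 18.66, 17.72, 14.40 and 16.91, also without overlap, a change of -1.31 (SE 0.11, adjusted p = 0.000993). Its dimmer probe sets changed by -0.77 and -0.41 (adjusted p = 0.0869 and 0.138). Other START genes, Stard3 and Stard5, were at -0.11 and -0.08, and the lysosomal transporters Npc1 and Npc2 at 0.05 and 0.02. Both calls held with any 1 pair left out and in an unpaired fit, but not without variance moderation or with the 3 prime to 5 prime covariate (Stard7 -0.96, Nceh1 -0.97).

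Of 14 genes of fatty acid synthesis, Fads1 fell, none rose and 13 did not pass, with a median of -0.08, where 3.16% of all genes were called in either direction. Fads1, a desaturase of polyunsaturated fatty acids, read 152.3, 169.4, 251.4, 255.7 and 181.3 with the vector and 80.53, 68.25, 92.90, 74.60 and 69.57 with the shRNA at 1423680_at. Vector samples 3 and 4 were again the highest, and the groups did not overlap. The change was -1.37 (SE 0.12, adjusted p = 0.00105), 2.58-fold lower, and was -1.19 with the ratio covariate (adjusted p = 0.340). A dimmer Fads1 probe set, 1440444_at, at a mean log2 level of 2.45, changed by -0.33 (adjusted p = 0.374). The elongase Elovl6 changed by -0.81 with pair differences from -0.14 to -2.06 (adjusted p = 0.130), while fatty acid synthase, Fasn, was at 0.02 and Acly, which supplies cytosolic acetyl-CoA, at 0.00. Of 13 genes that use isoprenoids, 0 passed by limma's adjusted p (2 at an unadjusted p under 0.05) and the changes lay between -0.33 (Fntb) and 0.14 (Zmpste24).

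**Figure D4:**
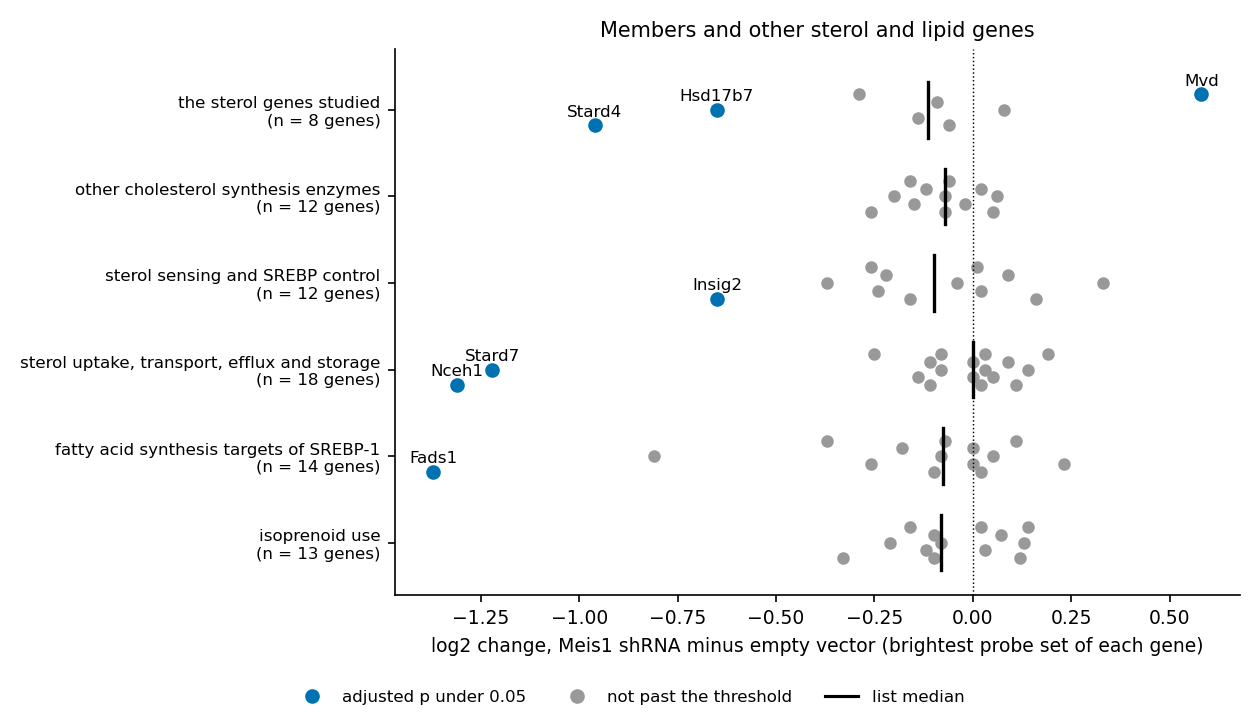
Log2 change, Meis1 shRNA minus empty vector (horizontal axis), of each gene at its brightest probe set, in the 8 genes studied and 5 further lists, with a black bar at each list's median. Stard4, Hsd17b7, Insig2, Stard7, Nceh1 and Fads1 lie below 0 and Mvd above it among the called genes, while the medians of all lists lie between -0.12 and 0.00.

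The mean over the 8 genes of the pair differences was -0.15, -0.15, -0.17, -0.29 and -0.19 in pairs 1 to 5, or -0.19 on average. Without Stard4 the average was -0.08. Among 6714 other genes with a mean log2 level above 5, those whose 5 pair differences lay nearest to that mean were Ptch1, Rbis, Dnajb11, Vrk3 and AU020206, at root mean square distances of 0.0317 to 0.0437 on the log2 scale, where the median gene was at 0.29. Their changes were -0.18 to -0.21, close to -0.19 because of how they were picked, and none of the 5 passed. That mean joins Stard4, which fell, with Mvd, which rose, so likeness to it is not likeness to each of the 8.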

How the data were processed

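RNA of 5 vector and 5 shRNA samples was hybridised to 1-colour Affymetrix mouse arrays. The authors deposited 1 intensity per probe set and sample, made with RMA per the submitters' processing notes. That these values are on a linear scale was read from their range, since no label states it. The RMA software and its version were not given in the sources used here. The method draws all arrays towards a common distribution and can shrink a change of total RNA. The deposited values still differed somewhat between arrays, with array medians of 6.25 to 6.71. The values ran from 1.3 to 32400, and log2 was taken with no pseudocount.

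The 45037 probe sets other than 64 controls were fitted with limma 3.58.1 in R 4.3.3 (lmFit and eBayes), with the sample number as a block because the labels pair the samples. Deviations of the arrays of a pair correlated at 0.31 to 0.60 over 11215 probe sets. Vector sample 2 correlated most with shRNA sample 1, and every other array correlated most with its own partner. P-values are two-sided, with Benjamini-Hochberg adjustment over all 45037 probe sets. Of the probe sets, 34945 carried 1 gene symbol, 932 several and 9160 none in the platform table, and only the first kind was named. The 34741 probe sets matched to RefSeq by Entrez number kept their symbol.

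The 8 genes and all lists were chosen with earlier results of these data known. Named genes were the 8, Meis1, Fdft1, Srebf1, Srebf2, Scap, Insig2 and, in each list, up to 3 called genes of largest change. Other genes of the lists were named after their values were seen. Of 79 listed pathway genes, 69 had a probe set of their own and 10 were not analysed here. Likeness was the root mean square distance between the 5 pair differences of a gene and the mean of the 8. Alternatives changed the block, normalization, filter, scale, variance model, gene summary and samples, or let the 3 prime to 5 prime ratio enter as covariate.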

Additional observations from a re-analysis of the deposited data

Results flagged for a closer look

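Of 96 groups of 5 samples, 7 held a sample whose distance to its nearest neighbour was large against the range of its group by Dixon's test, where chance marks about 1 in 20. For Mvd, vector sample 4 stood above the other vector samples at both probe sets, at 74.23 against 48.84 for the next at 1448663_s_at and at 48.91 against 27.52 at 1417303_at. In Insig1, vector sample 5 was at 343.4, with the next at 285.7, and in Sqle, shRNA sample 5 was at 315.1, with the next at 383.9. Hsd17b7 had such samples at 2 of its uncalled probe sets, vector sample 2 at 12.99 with the next at 9.04 (1417871_at) and shRNA sample 5 at 3.211 with the next at 4.037 (1440057_at). AU020206, one of the genes of like pattern, had shRNA sample 5 at 647.3, with the next at 844.9.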

How the results depend on the processing

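Of 18193 genes, 574 were called by their brightest probe set in the main fit and 739 when only 1 probe set per gene was fitted. Against 1116 called probe sets of 45037, limma called 2040 of the 11215 with a mean log2 level above 5 and 2309 with trend and robust eBayes. It called 33 without variance moderation and 0 when the 3 prime to 5 prime ratio entered as covariate (2504 at an unadjusted p under 0.05). That covariate is largely confounded with the shRNA, and neither setting called Meis1. Of the 8 genes, 3 were called, against 0 in both of the last settings (5 and 3 at an unadjusted p under 0.05) and 1 with the mean of a gene's probe sets. Of their 21 probe sets, 5 were called, against 0 and 0 (9 and 5 unadjusted). Without variance moderation or with the covariate, 0 genes of sterol sensing (5 and 1 unadjusted), 0 of sterol uptake and transport (2 and 2) and 0 of fatty acid synthesis (2 and 1) were called. Sterol sensing went from 1 called gene, which was lower, to 2 (1 lower and 1 higher) among bright probe sets and on the scale log2(value + 16), and under quantile normalization its 1 call was a different gene, called higher. Sterol uptake went from 2 to 1 among bright probe sets, where 9 of its 18 genes were tested and Nceh1, at a mean log2 level of 4.70, was not. Fatty acid synthesis went from 1 to 2 among bright probe sets, 3 with trend and robust eBayes and 2 when probe sets were averaged. Leaving out 1 pair gave 359 to 1674 called probe sets (359 without pair 4, 431 without pair 2, 493 without pair 1 and 1674 without pair 5), 3 to 4 of the 21, 1 to 2 of the 8 genes and 0 to 1 for sterol sensing. Without the replicate block, 816 probe sets, 2 of the 8 genes and 0 of sterol sensing (3 unadjusted) were called, and 1021 probe sets with a random block. Quantile normalization gave 640 lower and 345 higher calls against 881 lower and 235 higher. No called change of the 8 genes reversed under any alternative run. Of the changes of their probe sets under alternatives, 291 kept direction and side of the threshold, 22 lost the call, 6 gained it and 5 uncalled ones changed sign. The cause of these shifts was not tested. All Hsd17b7 probe sets had a mean log2 level below 5, and 1440057_at was at background.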
